A study of Mus musculus with 8 samples.

Results

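Liver glucose metabolism switches between the fed and the fasted state, and 9 genes known for telling these states apart were followed here through a mitogen response in mouse liver. They are Igfbp1, Igfbp2, Fgf21, Irs2, Ppargc1a, Pck1, Pklr, Ppp1r3c and Rgs16. All probe sets that the platform annotation assigns to these symbols were read, 20 in all, and the 9 genes stand among 18193 genes with a probe set. Where a gene had several probe sets, the brightest on average stood for it. All 9 passed the filter on low signals, which 12112 genes passed, as did 16 of their 20 probe sets.

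The series holds 8 Affymetrix arrays of pooled liver RNA, 1 for each of 2 arms on days 0, 1, 2 and 5 after TCPOBOP, so no group had a replicate. All mice carried the Metff/ff:ERCre+/+ genotype (also written METfl/fl: TamCre+/+), a floxed Met gene with a Cre that tamoxifen switches on throughout the body. Control mice were littermates that had received corn oil in place of tamoxifen. Mice of the MET KO + EGFRi arm had received 5 daily tamoxifen injections (100 µl at 10 mg/ml), which delete Met, and ate a diet holding canertinib, an inhibitor of the kinase of EGFR, with an aim of 80 mg/kg each day. That diet began 1 day before TCPOBOP, which followed the last tamoxifen injection by at least 5 days. TCPOBOP, a ligand of the nuclear receptor CAR that drives hepatocytes to divide, was given to both arms once by gavage at 3 mg/kg. Loss of Met, tamoxifen and the canertinib diet therefore always went together and cannot be told apart. In the MET KO + EGFRi arm, time after TCPOBOP was also time after tamoxifen and after the start of the diet. These times cannot be told apart either. The promoter that drives Cre, the number, sex and age of the mice in a pool, the control diet, food intake, any TCPOBOP given to mice of day 0 and the hour of harvest are not stated by the labels.

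After a meal, insulin signals through its receptor and Irs2 to Akt, which keeps FoxO transcription factors out of the nucleus. In fasting, insulin falls, glucagon and glucocorticoids act through cyclic AMP, CREB and the glucocorticoid receptor, and FoxO returns to the promoters of Igfbp1, Pck1 and Irs2. Pklr runs the other way, as a glycolytic gene that glucose switches on through the factor ChREBP. Several of these genes also answer to signals other than food: Igfbp1 and Fgf21 are known targets of stress signalling through ATF4.

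The stretches below show where the letters of the searched motifs, some of them hormone response elements, lie in the promoters of 4 of the members that hold a match. Each is the 150 bases before the RefSeq start in GRCm38.p6, 5′ to 3′ on the strand of the gene, with matches to a searched motif in capitals.
Igfbp1, chr11:7197637-7197786, plus strand: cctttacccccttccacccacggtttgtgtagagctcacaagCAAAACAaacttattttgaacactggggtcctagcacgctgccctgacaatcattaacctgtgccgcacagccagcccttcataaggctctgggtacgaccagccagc
Irs2, chr8:11008930-11009079, minus strand: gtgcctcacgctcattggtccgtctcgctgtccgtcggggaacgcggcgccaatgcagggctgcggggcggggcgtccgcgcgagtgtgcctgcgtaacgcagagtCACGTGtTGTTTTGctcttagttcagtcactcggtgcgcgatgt
Pck1, chr2:173152923-173153072, plus strand: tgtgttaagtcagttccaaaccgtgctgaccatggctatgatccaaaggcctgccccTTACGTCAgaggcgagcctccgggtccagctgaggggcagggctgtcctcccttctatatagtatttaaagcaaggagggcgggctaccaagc
Fgf21, chr7:45615491-45615640, minus strand: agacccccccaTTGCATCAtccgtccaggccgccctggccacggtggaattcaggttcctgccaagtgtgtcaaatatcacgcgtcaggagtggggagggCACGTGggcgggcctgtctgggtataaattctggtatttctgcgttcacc

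The insulin response letters CAAAACA were found in Igfbp1, from 108 to 102 bases before the start, and as their reverse complement TGTTTTG in Irs2, from 37 to 31 bases before it. Of 32851 promoters, 5.56 percent hold them on either strand in the 250 bases upstream that were searched. The variant cyclic AMP element TTACGTCA stands 93 to 86 bases before the start of Pck1 and in 0.447 percent of promoters. The C/EBP-ATF letters TGATGCAA were found in reverse in Fgf21 and in 0.791 percent of promoters. The E-box CACGTG was found in Fgf21, Irs2, Igfbp2 and Ppp1r3c and in 6.02 percent of promoters. The short glucocorticoid receptor letters AGAACA were found in Igfbp2 and in 16.1 percent. The FoxO letters GTAAACA, the full cyclic AMP element TGACGTCA and the STAT letters TTCCNGGAA, present in 3.17, 1.55 and 0.913 percent of promoters, had no match in the 11 windows of the 9 members. The stretches printed above all hold a match, while Ppargc1a, Pklr and Rgs16 had no match to any searched motif. No matches in these windows overlapped, and a match describes letters, not binding.

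Signals were on the scale of MAS5, Affymetrix's summary of a probe set, with a trimmed mean of 500 in each array, and the median signal of an array ran from 224.2 to 250.6. Cyp2b10, the best known CAR target, had 444 in control and 356 under MET KO + EGFRi on day 0 and at least 32027 in each of the other 6 arrays. Met itself, on the brighter of its 2 probe sets, had 1444, 926, 1336 and 1149 in control on days 0, 1, 2 and 5 and 1502, 1049, 2034 and 1358 under MET KO + EGFRi. These signals do not check the knockout, since the labels do not name the exon that Cre removes. Hepatocyte markers such as Alb and Apoa1 summed to 203509 to 337005 in control and 209861 to 317350 under MET KO + EGFRi over 7 genes, none of them at 0.

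Igfbp1 and Igfbp2, 2 secreted proteins that bind insulin-like growth factors, stood at opposite ends on day 0. Igfbp1, which insulin shuts off within hours, had a signal of 838.5 in control and 14038 under MET KO + EGFRi, 16.7 times as much. Igfbp2, which binds the same growth factors, had 9223 in control and 1494 under MET KO + EGFRi, 6.17 times less. By day 5 the arms had come to within 1.15-fold for Igfbp1 and 1.07-fold for Igfbp2.

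In the control arm Igfbp1 had 838.5, 345, 467 and 726 on days 0, 1, 2 and 5. Under MET KO + EGFRi it had 14038, 2327, 2367 and 836, so that the array of day 0 was far above the others and that of day 5 lay at the control level. The arms overlapped only through this last array, which was just under the highest control. Igfbp2 had 9223, 13602, 8852 and 10425.5 in control. Under MET KO + EGFRi its signals were 1494, 7303, 9384 and 9702, of which those of days 0 and 1 lay below every control array. Each gene has a single probe set, and Igfbp2's, with a name ending in _a_at, can read several transcripts of that gene. Over the 8 arrays the log2 values of the pair ran against each other (Pearson r = -0.903, 8 points, a description only).

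Fgf21, a hormone that the liver releases in fasting and under stress, had nearly the same signal in both arms on day 0, 301 in control and 297 under MET KO + EGFRi. On later days it had 534.5, 146 and 694 in control and 198, 404 and 606 under MET KO + EGFRi. The order of the arms was thus control first on day 1, MET KO + EGFRi first on day 2 and near equality on day 5. Both arms had their highest Fgf21 signal on day 5.

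Irs2, the adaptor that carries the insulin signal from its receptor and whose gene is itself switched on when insulin is low, had 275, 437, 449 and 330.4 in control. Under MET KO + EGFRi it had 722, 459, 494 and 378. MET KO + EGFRi was higher on 4 of 4 days, by 2.63-fold on day 0 and by 1.05- to 1.14-fold after it, and the arms overlapped. Irs2 was read from 1 probe set of low signal.

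Ppargc1a, the coactivator through which glucagon raises gluconeogenic genes, had the smallest spread over days of the 9 in each arm (SD of log2 values 0.20 in control and 0.18 under MET KO + EGFRi, 4 arrays each). Its probe set of highest mean had 444.5, 379.9, 313 and 323 in control and 407, 348, 447 and 486 under MET KO + EGFRi. The arms lay within 1.09-fold of each other on days 0 and 1, and MET KO + EGFRi was 1.43- and 1.5-fold higher on days 2 and 5. Of its 5 probe sets, 3 passed the filter, and the remaining pair had at most 115 on any array. On the second of the 3, day 0 had 524 in control and 351 under MET KO + EGFRi, and on the third 398.5 and 258, against the 444.5 and 407 of the first. The 3 thus gave different sizes on day 0, while all 3 had MET KO + EGFRi higher on day 5. They differed in sign on day 2. The second had 397 in control and 371 under MET KO + EGFRi, and the third had MET KO + EGFRi 2.01-fold higher.

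**Figure D1:**
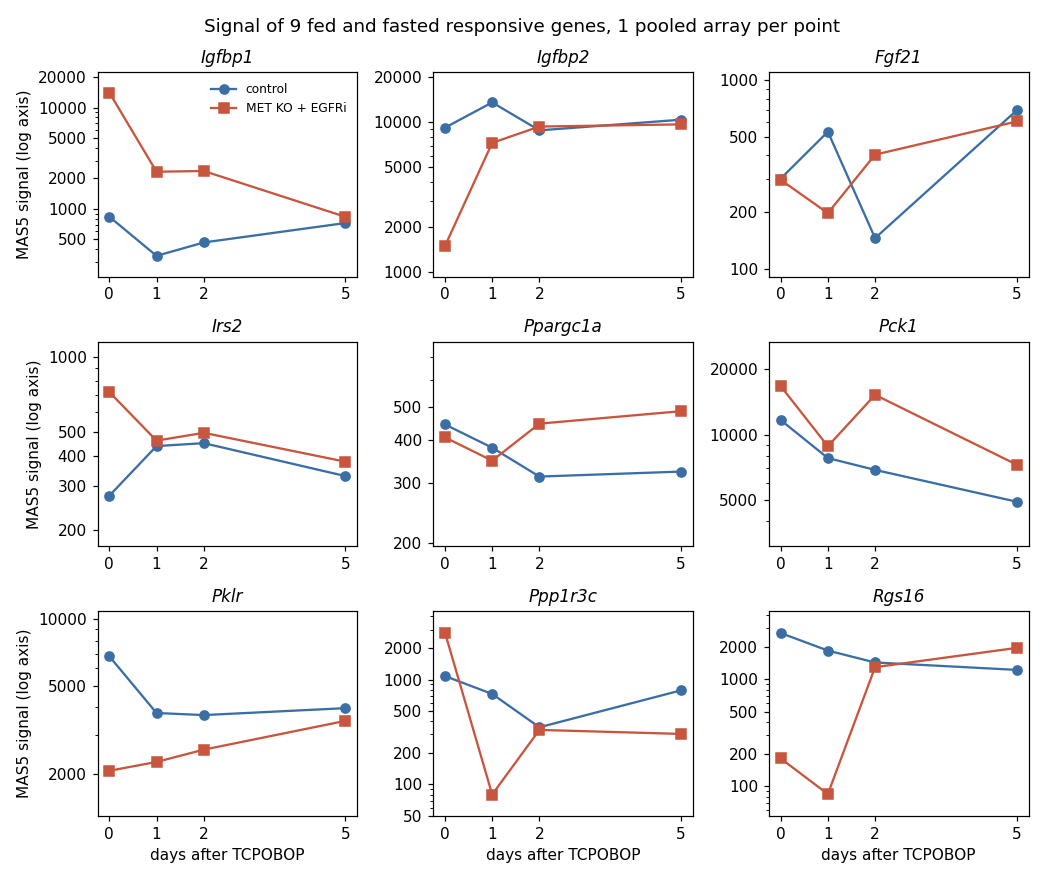
Signal of each of the 9 genes on its brightest probe set (vertical, log axis, MAS5 units) by day after TCPOBOP (horizontal) in control (circles) and MET KO + EGFRi (squares), 1 pooled array per point and no error bars. Igfbp1, Igfbp2, Pklr and Rgs16 start far apart on day 0 and lie within 1.61-fold of each other on day 5.

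Among the enzymes, Pck1 was higher and Pklr lower under MET KO + EGFRi on 4 of 4 days. Together with Igfbp1 and Irs2 that makes 4 of 9 members with 1 sign throughout, as had 20.2 percent of genes. Pck1, which makes phosphoenolpyruvate for gluconeogenesis, had 11656, 7802, 6886 and 4921 in control on days 0, 1, 2 and 5. Under MET KO + EGFRi it had 16688, 8836, 15208 and 7279. The gap was widest on day 2, at 2.21-fold, and narrowest on day 1, at 1.13-fold, and in both arms day 0 had the highest and day 5 the lowest signal. A second probe set of Pck1, which can bind related transcripts, had 7747, 4526, 2669 and 3084 in control and 10681, 5520, 9779 and 2761 under MET KO + EGFRi. It placed the widest gap on day 2 as well, at 3.66-fold, and had control slightly higher on day 5. The third, of weak signal, had MET KO + EGFRi higher on 4 of 4 days, by at most 1.67-fold.

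Pklr, the liver pyruvate kinase that ends glycolysis, had 6799, 3766, 3685.5 and 3961 in control and 2063, 2262, 2570.4 and 3470 under MET KO + EGFRi. It was the only member whose arms did not overlap, with the lowest control array above the highest MET KO + EGFRi array. Such separation was seen in 6.25 percent of the 12112 genes, to be read beside 1 member of 9. All 3 Pklr probe sets were lower under MET KO + EGFRi on 4 of 4 days. Their folds differed on day 0, at 3.3, 2.74 and 12.8. The last had 3987 in control and 312 under MET KO + EGFRi on day 0, and 1670.5 and 738 on day 5.

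Ppp1r3c, a subunit that brings protein phosphatase to glycogen and so favours glycogen synthesis, had the widest spread over days of any member but Rgs16 under MET KO + EGFRi. It had 1079, 728, 350.4 and 788 in control. Under MET KO + EGFRi it had 2805 on day 0, 80.0 on day 1, 331 on day 2 and 303 on day 5. MET KO + EGFRi was thus 2.6-fold higher on day 0, 9.1-fold lower on day 1, about equal on day 2 and 2.6-fold lower on day 5. On its other probe set Ppp1r3c had 589, 278, 241 and 499 in control and 1129, 249.6, 274 and 285 under MET KO + EGFRi. It shared the order on days 0, 1 and 5, but on day 1 its arms were only 1.11-fold apart, so the size of the day 1 gap rests on 1 probe set with a signal near the added constant of 71.

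Rgs16 shortens signals of G-protein coupled receptors and is known to vary with the daily feeding cycle in liver. On the probe set of highest mean, control had 2719, 1863, 1442 and 1229. MET KO + EGFRi had 182 and 84.7 on days 0 and 1, and 1303 and 1974 on days 2 and 5. The fold between arms was 14.9 and 22 on the first 2 of these days, with MET KO + EGFRi lower, 1.11 on day 2 and 1.61 on day 5, when MET KO + EGFRi was higher. The first pair are folds against weak signals, the second of them near the added constant of 71, and on the scale of log2(signal + 71) they are 11 and 12.4. The arms overlapped, with the low signals in the MET KO + EGFRi arrays of days 0 and 1. The other pair of Rgs16 probe sets did not pass the filter. One of them ran from 133 to 300.5 over the 8 arrays, with 264 in control and 208.5 under MET KO + EGFRi on day 0, and the other had 131 in control and 5.6 under MET KO + EGFRi on day 0, both weak.

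On day 0, 6 of the 9 members were at least 2-fold apart between the arms, where 4.82 percent of the 12112 genes were. Of the 6, 3 were higher and 3 lower under MET KO + EGFRi, beside 2.64 and 2.18 percent of genes. Folds for these counts are on the scale of log2(signal + 71), which understates those of weak genes. The higher members were Igfbp1, Irs2 and Ppp1r3c, and the lower ones were Igfbp2, Pklr and Rgs16. Among all 12112 genes Rgs16 had the lowest difference on day 0 and Igfbp1 the 5th highest. The counts were 4 members on day 1, with 5.52 percent of genes, 3 on day 2, with 4.91 percent, and 1 on day 5, with 4.41 percent. The members were chosen with earlier results of these data known. Their counts beside the share of all genes are therefore descriptions, not independent evidence about the set.

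The median absolute log2 difference of the members was 1.32, 0.89, 0.43 and 0.19 on days 0, 1, 2 and 5. Over all genes it was 0.25, 0.25, 0.27 and 0.25, so the members' median stood above that of all genes on days 0, 1 and 2 and below it on day 5. Of the 6 members 2-fold apart on day 0, 5 had a day 5 difference under 50 percent of it, and so did 69.2 percent of the 584 genes that were 2-fold apart on day 0. The exception was Ppp1r3c. The medians of members and of all genes are likewise descriptions, since the choice of members was not independent of these data.

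**Figure D2:**
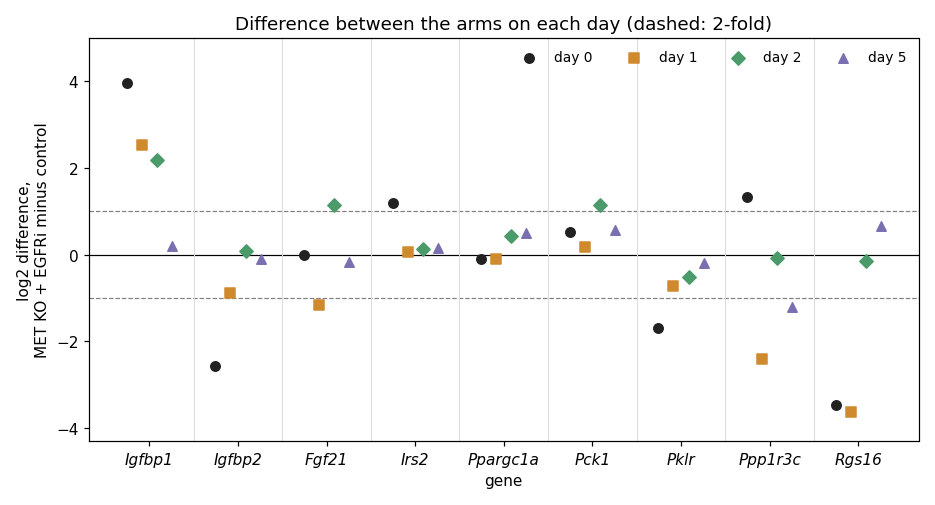
Log2 difference between the arms (vertical, MET KO + EGFRi minus control, of log2(signal + 71)) for each of the 9 genes (horizontal) on days 0, 1, 2 and 5, without replicates or error bars; dashed lines mark 2-fold. Igfbp1 goes from 3.96 on day 0 to 0.19 on day 5 and Igfbp2 from -2.57 to -0.10, while Fgf21 and Ppp1r3c lie on both sides of 0.

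Relative to known fed and fasted patterns the members did not move as a block on day 0. Igfbp1, Irs2 and Pck1, which are higher in fasted liver, were higher under MET KO + EGFRi, and Pklr, which is higher in fed liver, was lower. Ppargc1a and Fgf21, which are also higher in fasted liver, had log2 differences of -0.11 and -0.02. Igfbp2, Rgs16 and Ppp1r3c, each at least 2-fold apart on day 0, had -2.57, -3.46 and 1.32. They were given no fed or fasted direction here, so the comparison with known patterns leaves out members with large differences. Rgs16, the lowest of all genes on day 0, is among those left out. The comparison therefore shows no fasted or fed state of the members as a set. On day 5 Pck1, Ppargc1a and Rgs16 had log2 differences of 0.56, 0.50 and 0.65 and Ppp1r3c of -1.20, and the other 5 lay between -0.19 and 0.19.

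When the 4 days were averaged, none of the 9 members passed the test of the difference between arms. limma judged each mean difference by how much it varied from day to day, on 3 residual degrees of freedom. It drew that variance toward a trend fitted over all genes. The standard errors and p-values given here and below therefore borrow from other genes and are not a member's own spread between days. limma called 70 of 12112 genes, 0.578 percent, at an adjusted p under 0.05. At an unadjusted p under 0.05 it had 4 of the 9 members, Igfbp1, Pck1, Pklr and Rgs16, and 12.1 percent of all genes. Igfbp1 had the largest estimate, a log2 difference of 2.21 and a standard error of 0.49 (adjusted p = 0.139, higher on 4 of 4 days). Without the arrays of day 5 it was 2.89, with an adjusted p of 0.0298, the only one of the alternatives run in which a member was called (its adjusted p ran from 0.0298 to 0.497 over them), and without day 0 it was 1.63. Pck1 had 0.60 with a standard error of 0.17 (adjusted p = 0.225, higher on 4 of 4 days). Pklr had -0.78 with a standard error of 0.23 (adjusted p = 0.237, lower on 4 of 4 days). Rgs16 had -1.65 with a standard error of 0.69 (adjusted p = 0.401, lower on 3 of 4 days). The remaining estimates were -0.87 for Igfbp2, -0.59 for Ppp1r3c, 0.39 for Irs2, 0.18 for Ppargc1a and -0.06 for Fgf21, with adjusted p from 0.431 to 0.969. The sign for Ppp1r3c rested on day 1 and on the probe set, since the estimate was 0.02 without that day and 0.05 on its other probe set. Without day 0 the estimates were -0.30 for Igfbp2, 0.11 for Irs2, -0.47 for Pklr, -1.04 for Rgs16, -1.22 for Ppp1r3c and 0.28 for Ppargc1a. Rgs16 had -0.98 without day 1 and -0.55 with the mean of its probe sets.

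Averaged over both arms, the 3 days after TCPOBOP did not differ from day 0 at the threshold for any member either. limma called 59 genes, 0.487 percent, in that comparison, and at an unadjusted p under 0.05 it had 4 members and 10.1 percent of genes. Ppp1r3c had a log2 difference of -2.07 and a standard error of 0.58 (adjusted p = 0.283), Igfbp1 of -1.85 with 0.57 (adjusted p = 0.322) and Pck1 of -0.80 with 0.20 (adjusted p = 0.204). Igfbp2 had 1.36 with a standard error of 0.45 (adjusted p = 0.365).

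Within the control arm all 3 later days were below day 0 for Igfbp1, Pck1, Pklr, Ppp1r3c, Rgs16 and Ppargc1a. At least 2-fold distances from day 0 were few in this arm. They were seen for Igfbp1 on day 1, Ppp1r3c on day 2, and Fgf21, Pck1 and Rgs16 on day 5, making 1, 1 and 3 members beside 4.85, 5.32 and 5.39 percent of genes. The MET KO + EGFRi arm had 3, 4 and 5 members at least 2-fold from day 0 on days 1, 2 and 5, beside 3.36, 4.21 and 5.52 percent of genes. There Igfbp1 was 16.8 times lower on day 5 than on day 0, Igfbp2 6.49 times higher, and Rgs16 23.3 times higher on day 5 than on day 1. Ppp1r3c was 35.1 times lower on day 1 than on day 0 by signal, 19 times on the scale of log2(signal + 71), and its other probe set went from 1129 to 249.6. The spread over days of the log2 values was clearly wider under MET KO + EGFRi for 4 members, at 1.65 against 0.52 in control for Igfbp1 (SD, 4 arrays each), 1.26 against 0.28 for Igfbp2, 1.79 against 0.61 for Ppp1r3c and 1.81 against 0.48 for Rgs16. It was narrower for Fgf21 (0.56 against 0.81), Pklr (0.32 against 0.42) and Ppargc1a (0.18 against 0.20), and slightly wider for Pck1 (0.58 against 0.51) and Irs2 (0.35 against 0.28). All within-arm changes share the day 0 array of their arm, so a deviation of that array enters each of them. For Irs2 and Pklr, 2 of the 9, every later day lay on opposite sides of day 0 in the 2 arms, as for 9.85 percent of genes.

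Whether the change after TCPOBOP differed between the arms was tested as an interaction with 2 residual degrees of freedom. The test cannot tell TCPOBOP from time after tamoxifen or the start of the diet, which also rose with day under MET KO + EGFRi. limma called 0 of 12112 genes, with 543, or 4.48 percent, at an unadjusted p under 0.05, and also 0 without a variance trend. Of the members 0 were called and 5 had an unadjusted p under 0.05. Igfbp2 had the smallest adjusted p among them, 0.568, with a log2 difference of 2.27 and a standard error of 0.44. The others at the unadjusted level were Igfbp1 (-2.32), Ppp1r3c (-2.55), Irs2 (-1.08) and Pklr (1.22), with adjusted p of 0.979 for Pklr and 0.999 for the rest. Rgs16 had 2.42 with a standard error of 1.44.

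**Figure D3:**
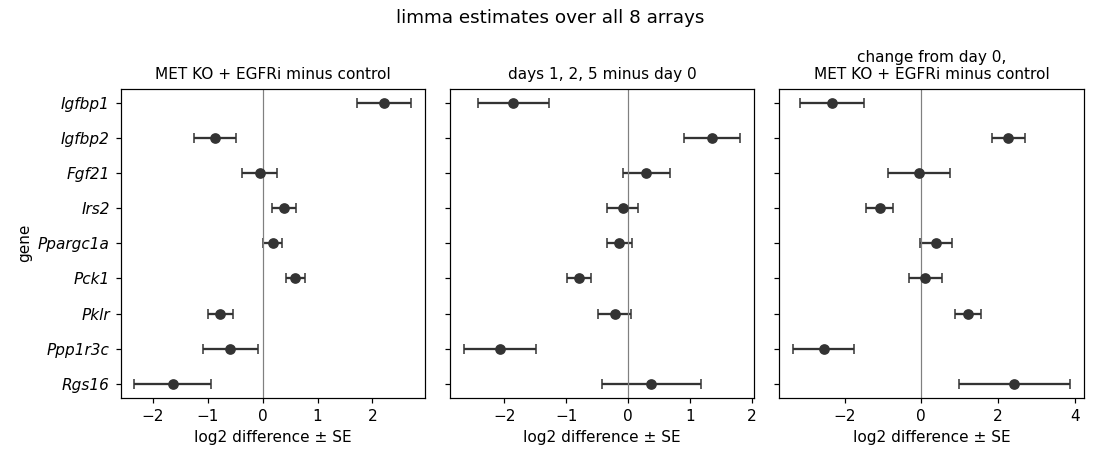
limma estimates for the 9 genes (vertical) with standard errors (bars) on the log2 scale (horizontal), from all 8 arrays, for MET KO + EGFRi minus control, for days 1, 2 and 5 minus day 0, and for the difference of that change between the arms. Igfbp1 has the largest estimate between the arms, 2.21, and no estimate passed an adjusted p of 0.05.

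Other genes of the same pathways were read from lists, described by their counts beside the all-gene share called, 0.578 percent, and the all-gene median of 0.00. The gluconeogenesis list had 0 of 10 genes called between the arms, with a median log2 difference of 0.24. By day its median was -0.01, 0.46, 0.51 and -0.07 on days 0, 1, 2 and 5, so it was near 0 on days 0 and 5. Got1, an aminotransferase of the malate shuttle, had 3401, 2399.7, 3114.5 and 2339.5 in control and 11957, 7593, 4708 and 2322 under MET KO + EGFRi (log2 difference 1.00, adjusted p = 0.228). Like Igfbp1 it began far higher under MET KO + EGFRi and had met control by day 5. Pcx, pyruvate carboxylase, was higher on 4 of 4 days (0.47, adjusted p = 0.322), and so was the muscle form of fructose bisphosphatase, Fbp2, at low signal (0.96, adjusted p = 0.147). Ldhb, a lactate dehydrogenase subunit, had 0.46 (adjusted p = 0.364). Amino acid catabolism had 1 of 16 called, the urea cycle enzyme Asl, which was higher (0.88, adjusted p = 0.0298). Prodh, which starts proline breakdown, had 0.90 (adjusted p = 0.103), the aminotransferase Tat 0.50 (adjusted p = 0.318) and Otc of the urea cycle, lower on 4 of 4 days, -0.65 (adjusted p = 0.198).

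Of glycolysis and hexose entry, 0 of 17 genes were called and the median was 0.01. Slc2a2, the glucose transporter of hepatocytes, had the largest difference. It had 12201, 6309, 6490.1 and 5870.3 in control and 4424, 2538, 5966 and 6019 under MET KO + EGFRi, lower on days 0, 1 and 2 (-0.71, adjusted p = 0.351). The phosphofructokinase Pfkp had -0.53, and Pfkfb2 and Pfkfb4, which set the level of an activator of phosphofructokinase, had 0.43 and 0.36 (adjusted p from 0.338 to 0.528). Glycogen metabolism had 0 of 17 called and a median of -0.15, with 13 of 17 lower on each of days 0, 1 and 2 and 8 of 17 on day 5. Of all 12112 genes, 6439, 5958, 5779 and 6216 were lower on days 0, 1, 2 and 5. Its largest differences were those of Stbd1, which tethers glycogen for breakdown (-0.70, adjusted p = 0.317), of Ugp2, which makes UDP-glucose (-0.63, adjusted p = 0.333), of the branching enzyme Gbe1 (-0.46, adjusted p = 0.319) and of Gyg, the primer of glycogen (-0.42, adjusted p = 0.428).

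The insulin signalling list had 0 of 22 called and a median of -0.01. Irs1, the relative of Irs2, ran the opposite way to it, with 1560.0, 1962, 1617 and 1938 in control and 798, 1011, 1009 and 1322 under MET KO + EGFRi. It was lower on 4 of 4 days without overlap (-0.75, standard error 0.13, adjusted p = 0.0703). Grb14, which restrains the insulin receptor, had -0.53 (adjusted p = 0.249), Pik3cb -0.69 (adjusted p = 0.262) and Foxo4 -0.61 (adjusted p = 0.244), each lower on 4 of 4 days. Among fasting transcription regulators 1 of 18 was called, Cebpd, a C/EBP factor of the acute phase, which was higher (1.52, adjusted p = 0.0174). Lpin1, a coactivator and phosphatidate phosphatase of fasted liver, had 4916, 1630.4, 1477 and 1097 in control and 6660.0, 4536, 3877 and 3831 under MET KO + EGFRi (1.24, adjusted p = 0.057). Cebpb had 0.74 (adjusted p = 0.127) and Hnf4a 0.64 (adjusted p = 0.176).

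SREBP1c and ChREBP targets, the genes of fat synthesis that insulin and glucose raise together with Pklr, had 3 of 17 called, all lower, and a median of -0.45. The 3 were Elovl6 (-1.79, adjusted p = 0.019), Pnpla3 (-1.21, adjusted p = 0.0422) and Me1 (-0.98, adjusted p = 0.0298). On day 0 the list had 16 of 17 genes lower and a median of -0.85, and on day 5 13 of 17 and -0.47. Of all 12112 genes, 6439 were lower on day 0 and 6216 on day 5. Scd1 had -1.29 (adjusted p = 0.0729) and Fasn -1.14 (adjusted p = 0.15), also lower on 4 of 4 days. On day 5 Elovl6 and Pnpla3 were at -1.16 and -1.13, Scd1 at -0.65, Me1 at -0.60 and Fasn at -0.40, beside -0.19, -0.56 and -1.11 on the 3 probe sets of Pklr. Ketogenesis and PPARA targets, the fat-burning side of fasting, had 1 of 15 called, the peroxisomal enzyme Ehhadh (1.21, adjusted p = 0.0213), with a median of 0.00. Its next largest differences had the other sign on 4 of 4 days, those of the lipid droplet protein Plin2 (-0.80, adjusted p = 0.1), the thioesterase Acot1 (-0.73, adjusted p = 0.225) and the fatty acid binding protein Fabp1 (-0.54, adjusted p = 0.349). Of 13 genes of the ATF4 stress response, which Fgf21 and Igfbp1 also answer to, 1 was called, Eif4ebp1 (0.94, adjusted p = 0.0374), with a median of 0.13. Chac1, a glutathione-degrading enzyme of that response, had 986, 610.3, 548 and 765.5 in control and 2218, 1283.5, 1139 and 723 under MET KO + EGFRi, a course much like that of Igfbp1. Ddit4 of the same list had 1.17 (adjusted p = 0.176) and Vldlr -0.58 (adjusted p = 0.323). On day 0, when Igfbp1 and Chac1 were furthest above control, the list as a whole had a median of -0.01, with 6 genes higher and 7 lower.

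**Figure D4:**
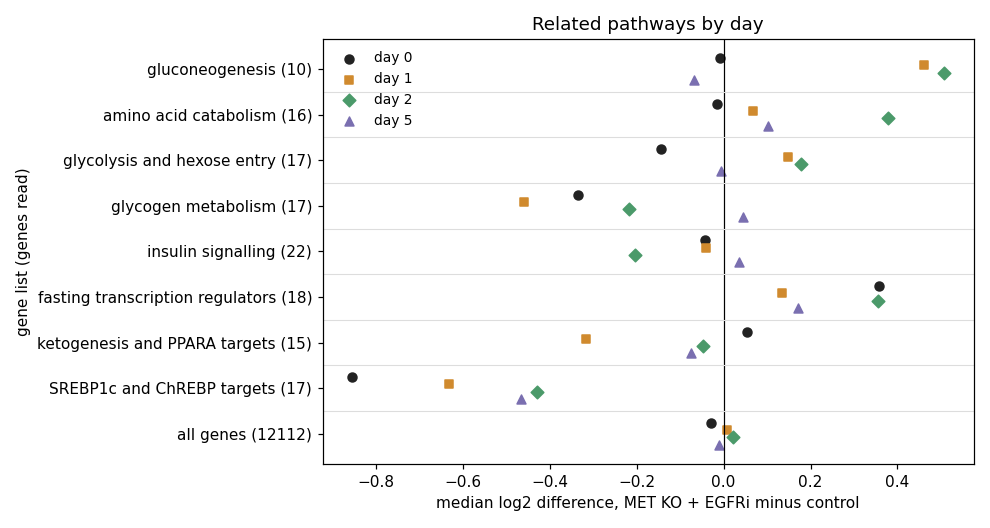
Median log2 difference between the arms (horizontal, MET KO + EGFRi minus control) of 8 related gene lists and of all genes (vertical, number of genes read in brackets; the 9 members are left out of the lists) on days 0, 1, 2 and 5, without error bars. SREBP1c and ChREBP targets lie below 0 on each day, from -0.85 to -0.43. Gluconeogenesis has its highest medians, 0.46 and 0.51, on days 1 and 2, and lies at -0.01 and -0.07 on days 0 and 5.

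The genes closest in course to each member were taken as the 3 with the highest Pearson r of log2 signal over the 8 arrays, among 12112 genes. With 8 points and so many genes high values of r turn up easily, and the points share arms and days, so these are descriptions. Igfbp1 had Gpc4 (r = 0.980), Chac1 (0.968) and the stress gene Gadd45g (0.968), which had 164.5 in control and 3532 under MET KO + EGFRi on day 0. Irs2 was followed by Rpl7l1 (0.971), Cyp7b1 (0.967) and Wsb1 (0.952). Cyp7b1, an enzyme of the alternative bile acid pathway, had 1194, 3447, 2276 and 1682 in control and 7234, 2832, 2962.5 and 1940.4 under MET KO + EGFRi. Pck1 had Celsr2 (0.960), Ugt2a3 (0.939) and Nampt (0.936), the last an enzyme of NAD salvage. Pklr had Rbms2 (0.985), Aacs (0.952) and Thbs2 (0.949), where Aacs activates acetoacetate for lipid synthesis. For Ppargc1a they were Palm2 (0.980), the urea cycle gene Ass1 (0.963) and the heme enzyme Urod (0.949). The closest to Igfbp2 were Tnik (0.968), Erich3 (0.965) and Glrx5 (0.965), to Fgf21 Gata1 (0.972), Msx2 (0.958) and Prkar2b (0.948), to Ppp1r3c Serpinh1 (0.969), Masp2 (0.963) and Cbx1 (0.947), and to Rgs16 Zkscan17 (0.978), Exd1 (0.961) and Tshz2 (0.954).

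Markers of other cells and of other states differed between the same arrays, and their part in the members' values was not tested. The summed signal of 6 neutrophil markers was 2834 to 3139 in control and 5866 to 6371 under MET KO + EGFRi, and that of 10 Kupffer cell markers 12560 to 28625 and 24760 to 42716, with none at 0 and 2 and 1 of them called higher by limma. That of 8 stellate cell markers was 9992 to 11002 and 12657 to 15536, with 1 called, but the median log2 difference of the 7 that passed the filter was -0.09, and 4 and 5 of the 7 were lower on days 0 and 1. That of 8 endothelial markers was 9585 to 14197 and 11110 to 14750. In bulk liver, a change in the number of cells of a type and a change in RNA per cell cannot be told apart. Acute phase proteins had 10 of 20 genes called, all higher, and a median of 1.16. The 10 were Saa1, Saa2, Saa3, Saa4, Lcn2, Serpina3n, Orm1, Orm2, Apcs and Itih3, with log2 differences from 1.05 to 5.46. Glucocorticoid targets had 3 of 11 called, all higher, namely Fkbp5 (1.22, adjusted p = 0.00989) and the metallothioneins Mt1 and Mt2 (3.22 and 3.20), and Errfi1, an inhibitor of EGFR, had 0.92 (adjusted p = 0.152). Of 14 clock genes 0 were called, but Dbp, whose level marks the time of day, had 5908 in control and 1278 under MET KO + EGFRi on day 0, and 1639.7 and 3025 on day 5. On day 1 Dbp had 4935 in control and 1799 under MET KO + EGFRi, and its log2 difference over the days was -0.68 (limma, adjusted p = 0.594). The rest of the list did not share the size of its day 0 gap. On day 0 the median of the 14 was -0.16, with 1 gene at least 2-fold higher and 1 lower. Per1 had 967 in control and 943 under MET KO + EGFRi on day 0. Nfil3 had a log2 difference of 1.01, Bhlhe40 of -0.80 and Per1 of 0.71 (adjusted p from 0.244 to 0.433).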

How the data were processed

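Liver RNA pooled by group was hybridised to 8 Affymetrix arrays, 1 for each of 2 arms on 4 days, after biotin labelling of 6 µg, per the labels' protocols. The deposited values are array intensities (signals) on a linear scale, made with MAS5 per the submitters' processing notes, whose version is not given in the sources used here. Each array had a 2 percent trimmed mean of 500. Probe-level values, detection calls and scan batches were not used here, and depth on arrays is set only by their number and signal.

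Of 45037 probe sets other than controls, 34945 name 1 gene, 932 several and 9160 none in the platform annotation used here. Each gene took the values of its brightest probe set on average, as log2(signal + 71), where 71 is the lower quartile, and 12112 genes with a mean of at least 8.24 were kept. limma 3.58.1 in R 4.3.3 fitted arm and day (3 residual degrees of freedom) and an arm by TCPOBOP interaction (2), with Benjamini-Hochberg adjustment over all 12112 genes. Single arrays were compared by fold alone, with no test. The scripts were tested on simulated data. With 1 pool per group, p-values rest on spread between days, moderated by limma over all genes, which is not spread between mice.

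The text names all members, from each pathway list the 4 genes with the largest difference and any called (cell marker lists are given as sums), and the 3 genes most like each member. Members and lists were chosen with earlier results of these data known. Promoters are from the RefSeq table of GRCm38.p6.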

Additional observations from a re-analysis of the deposited data

Results flagged for a closer look

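For 2 members every day after TCPOBOP lay on one side of day 0 in one arm and on the other side in the other arm, as for 9.85 percent of the 12112 genes. Irs2 was above its day 0 value on all 3 later days in control and below it on all 3 in MET KO + EGFRi, a difference of the mean changes of -1.08 on the log2 scale (limma interaction, adjusted p = 0.999). Pklr was below its day 0 value on all 3 days in control and above it in MET KO + EGFRi, a difference of 1.22 (limma interaction, adjusted p = 0.979). A second probe set of Pklr had the same pattern. On the third, MET KO + EGFRi was above day 0 on days 1 and 2 and below it on day 5. Each change shares the single day 0 array of its arm.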

How the results depend on the processing

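Of 327 recomputed member values 320 kept their sign and their side of the threshold, 6 reversed and 1 passed it, and all 7 came from leaving out a day. Changing the filter, the variance trend or the day term cannot alter a member's estimate, so its sign was fixed there. The same holds for fitting each probe set by itself, which read only the brightest of each member. The other probe set of Ppp1r3c had a log2 difference between arms of 0.05. When each day was left out, the log2 difference between arms ran from -0.46 to 0.31 for Fgf21 and from -1.22 to 0.017 for Ppp1r3c, positive only without day 1. The change after TCPOBOP ran from -0.041 to 0.54 for Fgf21 and from -0.16 to 0.017 for Irs2, with the sign reversed only without day 5. The interaction ran from -0.66 to 0.49 for Fgf21, positive only without day 1, and from -0.15 to 0.33 for Pck1, negative only without day 2. Igfbp1 was called between the arms without day 5, so the number of members called ran from 0 to 1 when each day was left out. Genes called between the arms, 70, were 28 with no filter and 21 (without day 1) to 57 when a day was left out (41 without day 0, 40 without day 2). Those called after TCPOBOP, 59, were 26 with no filter, 35 with the mean of probe sets, 34 without a variance trend and 15 (without day 5) to 55 when a day was left out (22 without day 1). The causes were not tested. The count of members 2-fold apart on day 5, 1, was 0 with the median as pseudocount and 0 with the mean of probe sets, settings chosen after seeing the data. The upper-quartile filter left 5 members tested and the mean of probe sets 8. The arms were already matched by day through the day term, and without it 49 genes and 0 members were called between the arms. Weak signals, as those of Fgf21, Irs2 and Ppargc1a, limit what can be measured.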

Other observations

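Relatives of the members outside the main lists had no gene that passed the test between the arms, in 3 lists. In the RGS family 0 of 10 genes were called by limma between the arms (median 0.17). Rgs3, another regulator of G-protein signalling, had 1356 in control and 212 under MET KO + EGFRi on day 0 and 1757 and 1311.5 on day 5, a day 0 gap in the direction of that of Rgs16 (log2 difference over days -0.74, adjusted p = 0.464). Rgs9, Rgs2 and Rgs5 had 0.47, 0.37 and 0.25. Of the IGF axis 0 of 11 were called (median 0.14). Igfals, which holds insulin-like growth factors in a large serum complex, had 1424 in control and 6123 under MET KO + EGFRi on day 2 and 2455 and 1566 on day 5, and Igf1 had 9360 and 19023 on day 2. The growth hormone receptor Ghr had a log2 difference of 0.47 and Igfbp5 of -0.49. Of the genes for reception of Fgf21, 0 of 6 were called (median -0.07), and its co-receptor Klb had a log2 difference of -0.13 (adjusted p = 0.802). The receptors Fgfr3, Fgfr2 and Fgfr4 had -0.53, 0.29 and -0.16.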
